A study of Homo sapiens with 14 samples.

Results

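The miR-548 family was followed across 14 small RNA libraries of PANC-1, an established human cell line derived from a pancreatic ductal carcinoma. Its members were the rows of the deposited count table whose names begin with hsa-miR-548. There were 75 such rows among 2848 in all, of which 2346 carried a human miRNA name. Rows with the same counts in every library were counted once, which left 69 distinct entries. The cells received either the vehicle DMSO or grape proanthocyanidins (PA, plant polyphenols built of flavan-3-ol units), the latter at 20 µg/ml. Vehicle cells were taken at 0, 3, 12 and 24 h and PA cells at 3, 12 and 24 h, which made 7 groups of 2 libraries lettered A and B. All groups shared the cell line and a medium with fetal bovine serum. In cultures sampled in bulk, fewer cells expressing a miRNA and less of it per cell cannot be told apart.

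MicroRNAs are short RNAs that load into Argonaute proteins and pair with messenger RNAs, mainly through bases 2 to 8 from their 5′ end, the seed. The miR-548 family is specific to primates and arose from copies of MADE1, a miniature DNA transposon of the mariner type whose terminal repeats fold back on each other. Transcripts that cross such a copy can form a near-perfect hairpin, and either strand of it, the 5p arm or the 3p arm, can give a mature miRNA. Its members lie at many sites of the genome.

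Sequences were taken from RefSeq (GRCh38.p14), where 49 of the 75 rows had an entry, 47 of them distinct. The hairpin of MIR548M, printed because it shows the fold-back of the transposon, lies at chrX:95063141-95063226 on the minus strand, outside annotated genes. In its predicted fold 80 of its 86 bases were paired. Capitals mark the mature miR-548m, bases 15 to 35.

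MIR548M hairpin: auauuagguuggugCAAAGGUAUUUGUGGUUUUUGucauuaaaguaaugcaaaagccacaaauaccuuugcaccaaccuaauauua

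Mature sequences of members from the 3p arm follow, with the seed in capitals, because entries of this arm carry most of the family's reads. By name or position they held 56.3% of the reads, 31.5% being miR-548c-3p alone, and the 5p arm held 41.5%.

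miR-548c-3p: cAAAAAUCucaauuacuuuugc
miR-548o-3p: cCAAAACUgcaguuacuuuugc
miR-548aq-3p: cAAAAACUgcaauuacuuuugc
miR-548u: cAAAGACUgcaauuacuuuugcg
miR-548b-3p: cAAGAACCucaguugcuuuugu
miR-548ay-3p: cAAAACCGcgauuacucuugca
miR-548p: uAGCAAAAacugcaguuacuuu
miR-548au-3p: uGGCAGUUacuuuugcaccag

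Members from the 5p arm, also with the seed in capitals, are printed beside them because their seeds differ by a base, by a shift of the start within the repeat, or not at all.

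miR-548k: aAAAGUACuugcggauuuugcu
miR-548g-5p: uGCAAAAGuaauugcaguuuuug
miR-548f-5p: uGCAAAAGuaaucacaguuuuu
miR-548n: cAAAAGUAauuguggauuuugu
miR-548b-5p: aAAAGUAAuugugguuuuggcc
miR-548l: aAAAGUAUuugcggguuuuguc
miR-548ab: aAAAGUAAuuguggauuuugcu
miR-548q: gCUGGUGCaaaaguaauggcgg

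The shared repeat was visible in these letters. The run AAAAGUA occurred in 16 of 26 sequences from the 5p arm, starting at base 1 in 12 of them and at bases 1 to 9 over all. It started at base 4 in miR-548g-5p, at base 2 in miR-548n and at base 9 in miR-548q. The run UUACUUUU occurred in 13 of 21 sequences from the 3p arm, most often at base 13, and at base 7 in miR-548au-3p. Of 2298 other human mature sequences, 0.0435% held the first run and 0.087% the second. Both runs were chosen after looking at the sequences and were searched on the mature strand alone. The 47 matched sequences had 28 different seeds. Seed AAAGUAA was shared by 10 entries, among them miR-548b-5p and miR-548ab, and AAAAACU by 5, among them miR-548aq-3p. Seed GCAAAAG was common to miR-548g-5p and miR-548f-5p, whereas the seeds of miR-548c-3p and miR-548o-3p belonged to 1 entry each.

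Names did not always stand for separate molecules. The rows miR-548g-5p, miR-548x-5p and miR-548aj-5p had 1 RefSeq sequence among them and the same 544 reads, and are called miR-548g-5p here. The rows miR-548c-5p, miR-548o-5p and miR-548am-5p shared 84 reads, miR-548t-3p and miR-548aa shared 278, and miR-548h-3p and miR-548z shared 174. The row miR-548ai had the sequence and the 8 reads of miR-570-5p, a miRNA outside the name. The short miR-548av-5p is the first 18 of the 22 bases of miR-548k. It had 3 reads against 1912, so a shortened miR-548k read and miR-548av-5p cannot be told apart. How reads matching several members were assigned was not given in the sources used here, so levels of near-identical members are uncertain.

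The 51 RefSeq genes of the family with a mature sequence lay on 21 chromosomes. An intron of a gene on the same strand held 31 of them, 28 of these in a protein-coding gene, and 0 lay in an exon of a gene on the same strand. The other 20 had no gene on their strand, and 6 of these lay in a gene on the opposite strand. Host genes were taken from GENCODE, limited to protein-coding genes and the main long noncoding types. MIR548C lies at chromosome 12, 64622509 to 64622605, plus strand, in an intron of RASSF3, a RAS association domain protein gene. MIR548K lies at chromosome 11, 70283955 to 70284070, plus strand, in an intron of PPFIA1, which encodes a liprin scaffold protein. Of the genes behind miR-548g-5p, MIR548G on chromosome 4 lay outside genes and MIR548X on chromosome 21 in an intron of the noncoding MIR548XHG. MIR548AQ lies in an intron of IGF2BP2, an mRNA-binding protein gene, and MIR548AU in an intron of PHF2, a histone demethylase gene. Host transcripts were not measured in the count table.

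Total counts per library ran from 1032391 to 3111014. Levels are given as CPM (a count per 1000000, that is, a count divided by the library total times its TMM factor), in which 1 read was worth 0.339 CPM in the deepest library and 0.909 CPM in the shallowest, DMSO 12 h B. A read covers a whole mature miRNA of about the same length in each member, so CPM values were compared between entries with no length correction. Marker miRNAs of other tissues were scarce: summed CPM ran from 1.64 to 6.37 for 4 haematopoietic entries, from 0 to 4.58 for 3 red cell entries and from 0 to 8.67 for 4 of muscle, liver and neurons. The pancreatic acinar and islet list, 4 entries, summed to 2.17 to 10.2 CPM. The 8 fibroblast and endothelial entries summed to 819 to 963 CPM in DMSO 12 h and 1070 to 1580 CPM elsewhere. The 14 entries that match pieces of tRNA, rRNA, U2 or snoRNA, a sign of RNA quality, summed to 8960 to 11100 CPM in PA 24 h against 7080 to 8740 CPM in DMSO 24 h. At 12 h they summed to 6820 to 11400 CPM in PA against 3580 to 6080 CPM in DMSO. At 3 h they summed to 4590 to 4850 CPM in PA against 4170 to 4300 CPM in DMSO. PA thus lay above DMSO without overlap at 3, 12 and 24 h. Their part in the results was not tested.

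The family as a whole was scarce. Its 69 distinct entries took 11538 reads, or 0.0404% of all counts, and between 0.0337% (PA 24 h A) and 0.0489% (DMSO 24 h A) of a library. Reads were found in all 14 libraries for 22 entries, while 23 entries had fewer than 15 reads over the whole series. The most abundant member, miR-548c-3p, gave 31.5% of the family's reads and ranked 213 among the 2848 rows by mean CPM. miR-548k gave 16.6% and ranked 274, and miR-548g-5p ranked 422. The first 2 together made 48% of the family's reads.

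Summed CPM of the 69 entries was 418.2 and 428.1 in DMSO 0 h (A and B), 389.9 and 388.2 in DMSO 3 h, 361.2 and 362.8 in DMSO 12 h, and 461.2 and 457.6 in DMSO 24 h. The PA libraries had sums of 409.7 and 372.4 (3 h), 389.7 and 466.3 (12 h), and 380.9 and 392.6 (24 h). PA libraries lay on both sides of the DMSO libraries at 3 h, above them at 12 h and below them at 24 h. The ratio of the means, PA over DMSO, was 1.01 at 3 h, 1.18 at 12 h and 0.842 at 24 h, with no test because the sum runs over chosen members. The vehicle alone ran from 362 ± 1.16 CPM at 12 h to 459 ± 2.59 CPM at 24 h (SD, n = 2 each). The 95% Poisson interval of the sum was 333.6 to 390.4 CPM in DMSO 12 h A, wider than the gap between A and B there, so the small SD values of these sums understate the error. Such intervals cover counting error only, since PCR copies of 1 molecule are counted as separate reads.

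**Figure D1:**
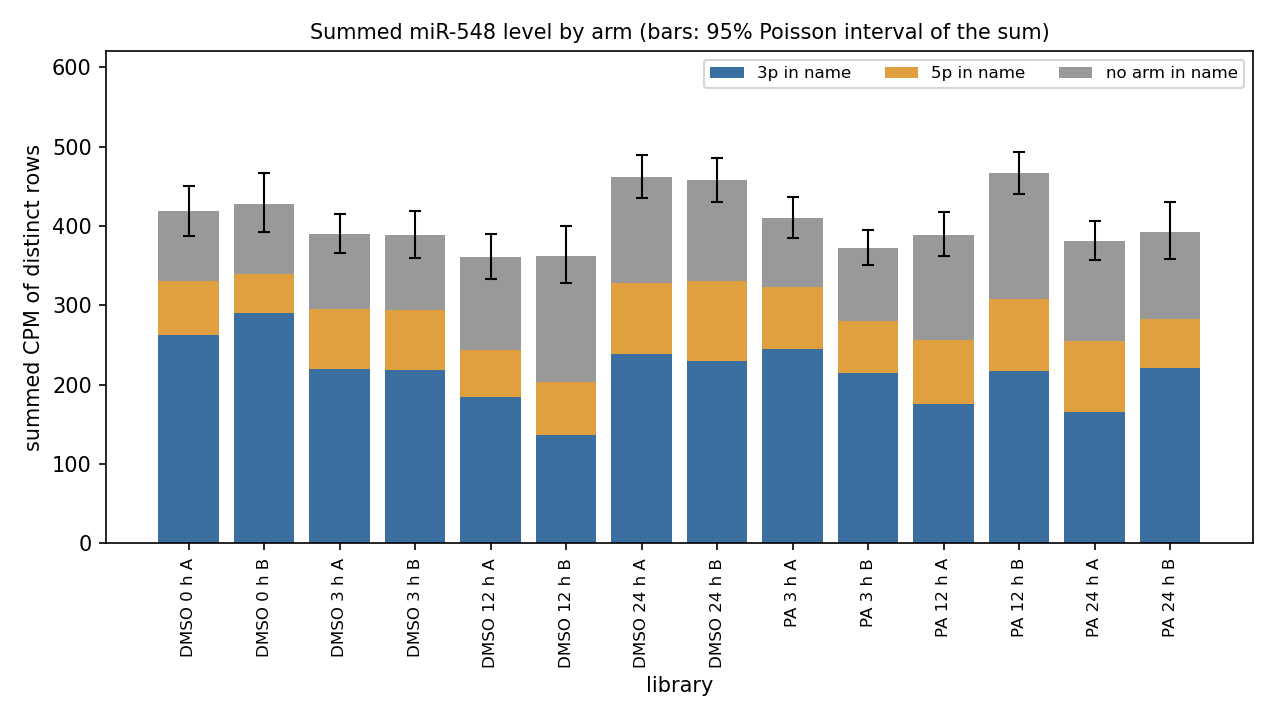
Summed CPM (y axis) of the 69 distinct miR-548 entries in each of the 14 libraries (x axis), stacked by the arm in the entry's name, with the 95% Poisson interval of the whole sum as the bar. The 3p part is the tallest in most libraries, and the sums of PA 24 h lie below those of DMSO 24 h while the sums of DMSO 12 h are the lowest of the vehicle.

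Entries with 3p in the name, 24 of them, held 52.9% of the family's reads, the 21 with 5p held 19% and the 24 with no arm in the name 28.1%. By position in their RefSeq gene, 13 of the last lay on the 5p side, miR-548k among them, and 5 on the 3p side, and 6 could not be placed. The 5p sum was 62.5 ± 5.51 CPM in DMSO 12 h and 85.3 ± 7.24 CPM in PA 12 h, a log2 ratio of 0.45. In DMSO 0, 3 and 24 h its mean was 58.4, 75.8 and 94.9 CPM, so PA 12 h lay within the range of the vehicle means. With miR-548k and the other placed entries added, an alternative chosen after seeing the data, the log2 ratio at 12 h was 0.26. The libraries of the 12 h groups then overlapped. At 24 h the 5p, 3p and no-arm sums had log2 ratios of -0.32, -0.28 and -0.14. The sum without miR-548c-3p had a log2 ratio of -0.15 at 24 h, and its PA libraries, 322 and 252 CPM, lay on both sides of the DMSO libraries, 319 and 316 CPM.

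The arm that dominated differed between members with rows for both arms. Pooled over libraries, the 5p arm held 2.26% of the miR-548c reads, 14.8% of miR-548o, 12.3% of miR-548e and 12.1% of miR-548aq. It held 45.3% of miR-548b and 56.2% of miR-548ay. It held 82.2% of miR-548d, 97.7% of miR-548g and 99.8% of miR-548f. Between the 7 groups the 5p share of miR-548c ranged from 0.348% to 3.58%, of miR-548b from 37.5% to 60% and of miR-548d from 60% to 97.1%. The ranges of miR-548c and miR-548f lay at opposite ends and did not meet. Where the 5p row is one of 3 names, as for miR-548c, miR-548o and miR-548g, its reads may come from another of these genes.

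**Figure D2:**
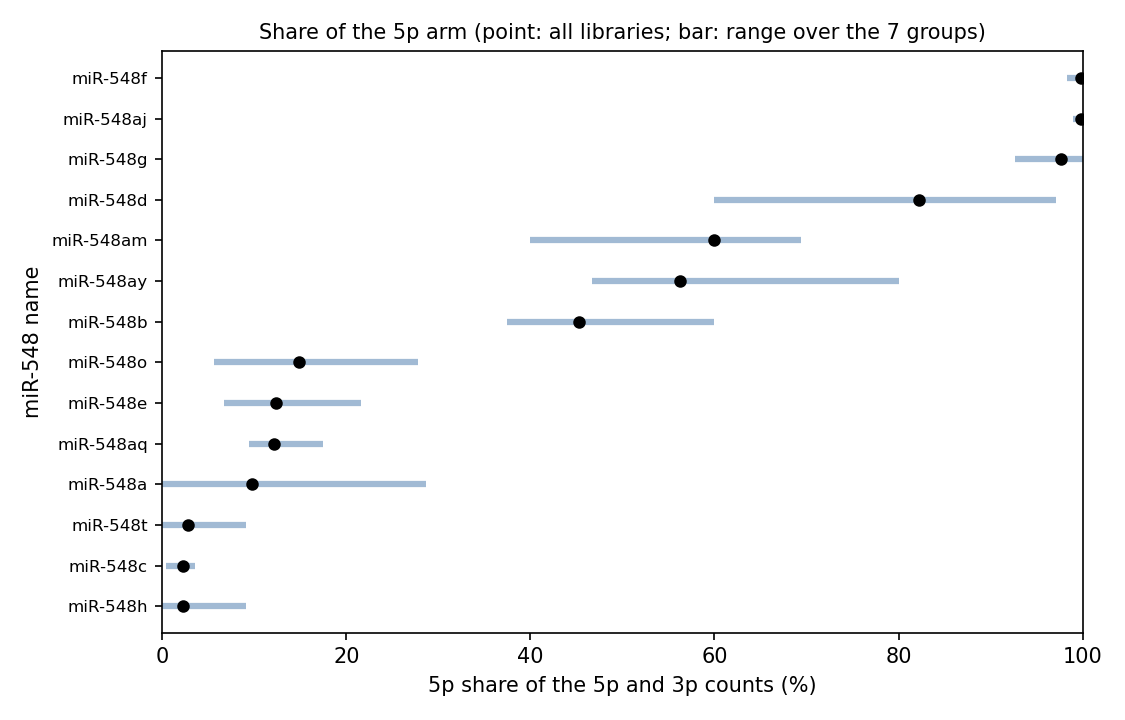
Share of the 5p arm (x axis, percent of the 5p and 3p reads) for the miR-548 names with at least 100 reads over both arms (y axis); points pool the 14 libraries and bars span the lowest and highest of the 7 groups. Names such as miR-548c sit near 0, miR-548b and miR-548ay near the middle, and miR-548g and miR-548f near 100.

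Single entries were tested where counts allowed, in a fit over all rows of the table (edgeR's quasi-likelihood test with Benjamini-Hochberg adjustment). Of the 69 entries, 25 entered this fit and 44 were too scarce. The 25 held 91.5% of the family's reads. The threshold was an adjusted p of 0.05. At 3 h, 0 of 25 passed, where 0.247% of all 810 entries tested did (0.247% higher and 0% lower with PA). At 12 h, 0 of 25 passed against 11.1% of all entries (6.3% higher and 4.81% lower). At 24 h, 0 of 25 passed against 6.67% (4.32% higher and 2.35% lower). The unadjusted p was under 0.05 for 1 member at 3 h (1.73% of all entries), 3 at 12 h (26.3%) and 3 at 24 h (20.9%). DESeq2 called 0 members at each time, with 0, 1 and 2 unadjusted. The share of all entries that DESeq2 called is not given here. Its counts of members, here and below, are therefore a description and no result about the family. The smallest adjusted p of a member (edgeR) was 1 at 3 h, 0.0579 at 12 h and 0.0654 at 24 h. The value at 24 h is that of miR-548au-3p, also 1 of the 3 unadjusted there. This entry passed the count filter through PA 24 h alone, where it is high, so it is no support for a difference. The same holds for miR-548q, 1 of the 3 unadjusted at 12 h, which passed through vehicle libraries alone.

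**Figure D3:**
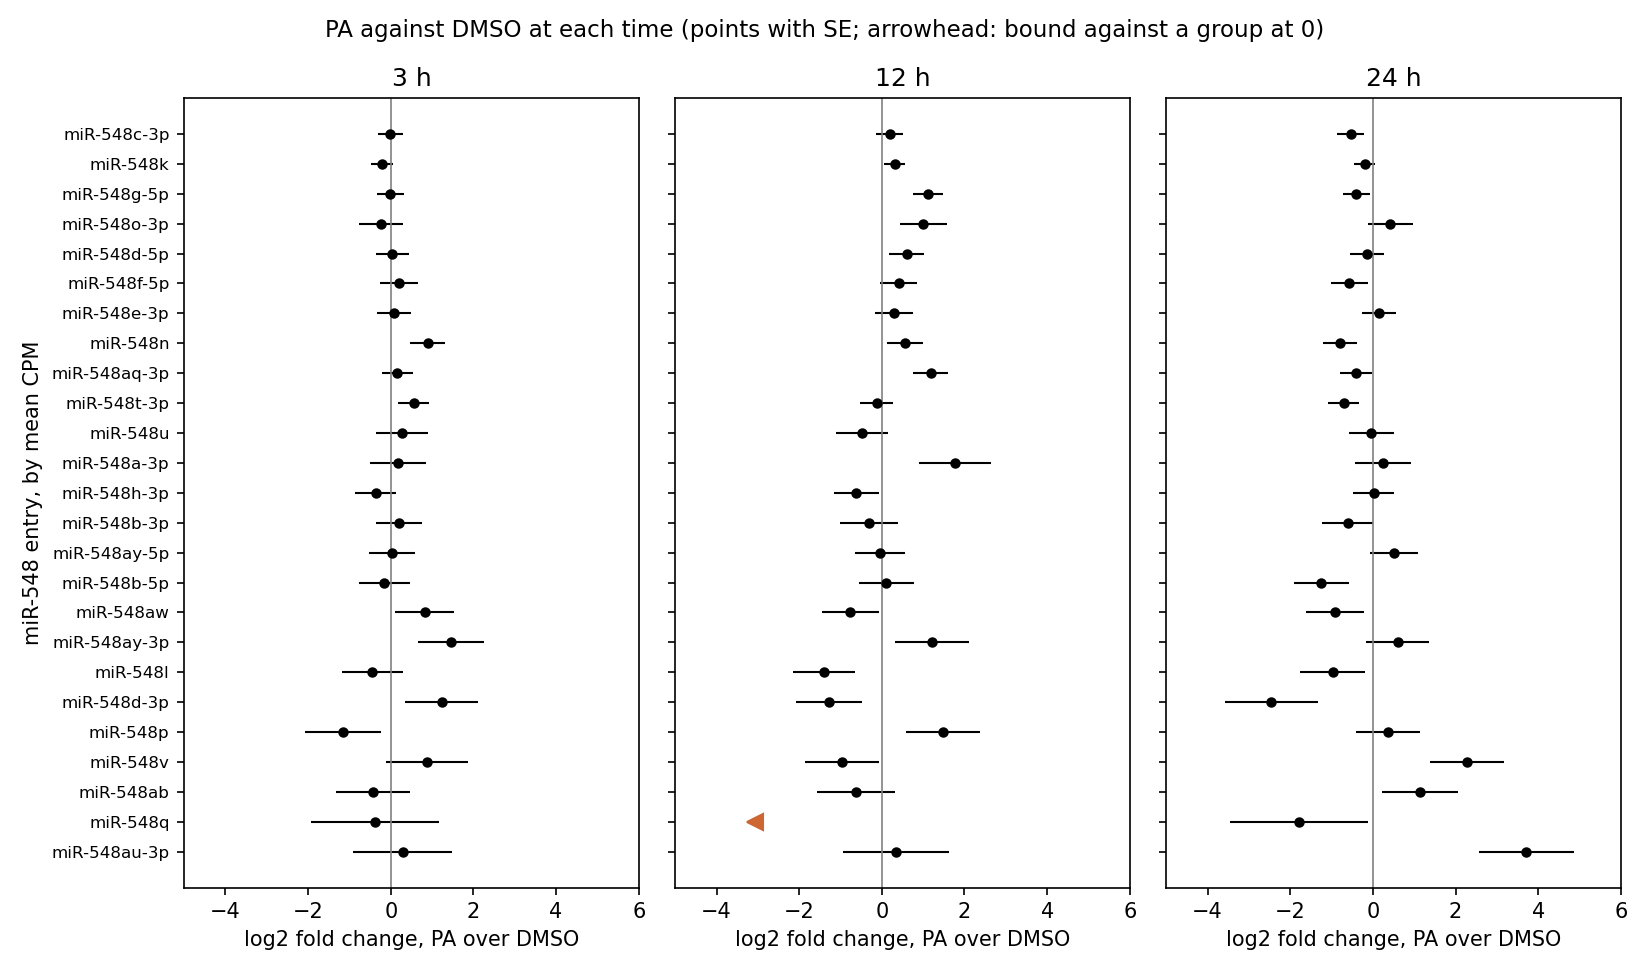
Log2 fold change of PA over DMSO (x axis) for the 25 tested miR-548 entries (y axis, by mean CPM) at 3, 12 and 24 h, with the standard error as the bar; the arrowhead marks miR-548q, at a bound because both PA 12 h libraries had 0 reads. Points scatter on both sides of 0 at each time, and bars lengthen toward the scarce entries at the bottom.

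The direction of the 25 entries was mixed at each time. At 3 h, 15 had a positive and 10 a negative log2 fold change, with a median of 0.08 (all entries -0.01). At 12 h there were 14 positive and 11 negative, with a median of 0.19 (all entries -0.06). At 24 h there were 10 positive and 15 negative, with a median of -0.20 (all entries -0.01). Both PA libraries lay above both DMSO libraries for 7 members at 3 h (16.3% of all entries), 10 at 12 h (25.3%) and 4 at 24 h (25.6%). They lay below for 2 members at 3 h (16% of all entries), 4 at 12 h (26.8%) and 11 at 24 h (26.5%). The entries had to pass a count filter, so these counts describe the 25 and not the family. Those above at 24 h include miR-548au-3p, which passed the filter through PA 24 h alone. Those below include miR-548l at 12 and 24 h and miR-548q at 24 h, which passed it through vehicle libraries alone.

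The leading 3p member, miR-548c-3p, ranged from 69.1 to 221 CPM in the vehicle and from 59.3 to 144 CPM with PA. Its level was 188 and 221 CPM in DMSO 0 h (A and B), 142 and 129 in DMSO 3 h, 115 and 69.1 in DMSO 12 h, and 142 and 142 in DMSO 24 h. In PA libraries it was 144 and 126 CPM (3 h), 89.2 and 122 (12 h), and 59.3 and 140 (24 h). Both DMSO 0 h libraries stood above the other 12, and the lowest library was PA 24 h A, whose partner B was near DMSO 24 h. The log2 fold changes of PA over DMSO were -0.01 ± 0.31 at 3 h, 0.19 ± 0.32 at 12 h and -0.54 ± 0.32 at 24 h (SE, edgeR adjusted p = 1, 0.774 and 0.357). At 24 h the value rested on 1 library: without PA 24 h B it was -1.23 (adjusted p = 0.0345) and without PA 24 h A 0.00. Over the DMSO times its adjusted p was 0.113. The group means ran in the order DMSO 0 h (205 CPM), DMSO 24 h (142), DMSO 3 h and PA 3 h (135 each), PA 12 h (106), PA 24 h (99.9) and DMSO 12 h (92). DMSO 3 h and PA 3 h overlapped, as did PA 12 h, PA 24 h and DMSO 12 h. Both DMSO 24 h libraries lay within PA 3 h (126 to 144 CPM). PA 24 h (59.3 to 140 CPM) also overlapped with DMSO 3 h and PA 3 h.

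The second member, miR-548k, was lowest where miR-548c-3p was highest, in DMSO 0 h. Its level was 43.4 and 41.9 CPM in DMSO 0 h, 59.2 and 55 in DMSO 3 h, 59.7 and 107 in DMSO 12 h, and 74.6 and 71.5 in DMSO 24 h. In PA libraries it was 48.4 and 49.4 CPM (3 h), 95.8 and 109 (12 h), and 74.2 and 51.3 (24 h). Both DMSO 0 h libraries were the lowest of the series, and both PA 12 h libraries and DMSO 12 h B were the highest. The log2 fold changes were -0.22 ± 0.27 at 3 h, 0.31 ± 0.26 at 12 h and -0.20 ± 0.26 at 24 h (SE, edgeR adjusted p = 1, 0.478 and 0.74). Over the DMSO times its adjusted p was 0.0912. In order of group means, PA 12 h (102 CPM), DMSO 12 h (83.5), DMSO 24 h (73.1), PA 24 h (62.7) and DMSO 3 h (57.1) each overlapped with the next. PA 3 h (48.9) and DMSO 0 h (42.6) followed, and neither overlapped with the group before it.

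The ratio of the 2 leading members differed widely between libraries. Reads of miR-548c-3p over those of miR-548k ran from 0.644 in DMSO 12 h B to 5.27 in DMSO 0 h B and exceeded 1 in 11 of 14 libraries. Pearson's r of their log2 CPM over the 14 libraries was -0.69, given as a description because the libraries share groups and scaling. Among the other 24 tested members, r with miR-548c-3p was highest for miR-548b-3p, at 0.46. The entries outside the family most like miR-548c-3p, by the same measure among 781 compared, were miR-520h (0.87), miR-520e (0.85) and the unnamed chr1_1009 (0.84). Those most like miR-548k, a comparison added after its values were seen, were miR-423-3p (0.81), miR-7974 (0.81) and miR-382-5p (0.80).

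**Figure D4:**
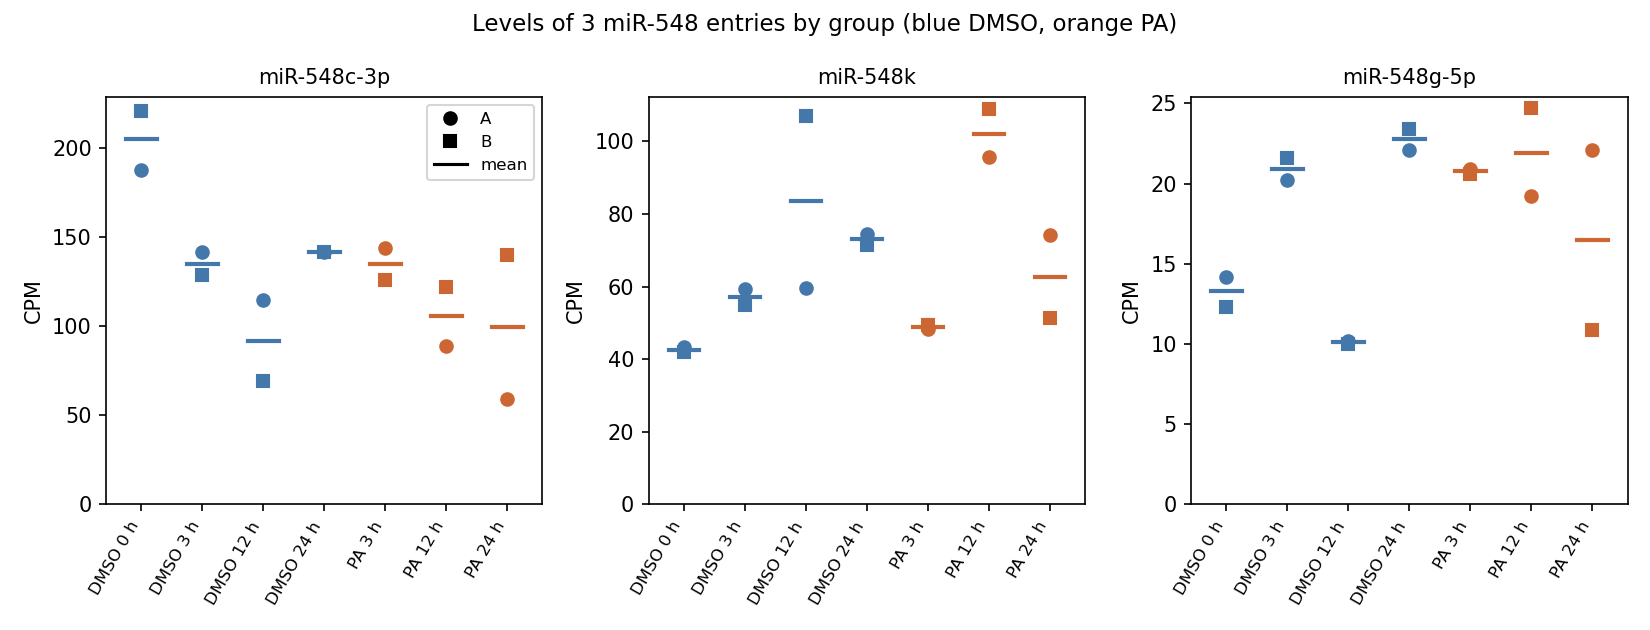
CPM (y axis) of miR-548c-3p, miR-548k and miR-548g-5p in the 7 groups (x axis); circles are libraries A, squares libraries B and lines the group mean, with DMSO in blue and PA in orange. miR-548c-3p is highest and miR-548k lowest in DMSO 0 h, and miR-548g-5p is lowest in both DMSO 12 h libraries.

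Of the 5p members, miR-548g-5p had the smallest adjusted p of the family at 12 h. Its level was 14.2 and 12.3 CPM in DMSO 0 h, 20.2 and 21.6 in DMSO 3 h, 10.2 and 10 in DMSO 12 h, and 22.1 and 23.4 in DMSO 24 h. In PA libraries it was 20.9 and 20.6 CPM (3 h), 19.2 and 24.7 (12 h), and 22.1 and 10.9 (24 h). The DMSO 12 h libraries were the lowest of the series, and PA 12 h lay near DMSO 3 h and 24 h. At 12 h the means were 10.1 ± 0.166 against 21.9 ± 3.91 CPM (SD, n = 2 each), with a log2 fold change of 1.11 ± 0.36 (adjusted p = 0.0579 by edgeR). It was -0.01 at 3 h and -0.40 at 24 h, with adjusted p of 1 and 0.531. Set against the mean of DMSO 0, 3 and 24 h, an alternative chosen after seeing the data, PA 12 h gave 0.25 (adjusted p = 0.704). Its adjusted p was 0.088 over the DMSO times and 0.153 for a PA effect that differs between the times. miR-548f-5p, with the same seed, had 18.2 and 10.9 CPM in DMSO 12 h and 15.6 and 23.9 in PA 12 h, which overlapped.

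Other 5p members had smaller levels. miR-548d-5p had 13.8 ± 7.47 CPM in DMSO 12 h and 20.1 ± 0.818 in PA 12 h, a log2 fold change of 0.60 (edgeR adjusted p = 0.417). miR-548n, with a seed shifted by 1 base from that of miR-548k, had the smallest unadjusted p of the family at 3 h: 5.89 ± 0.766 CPM in DMSO and 10.9 ± 0.552 in PA, a log2 fold change of 0.89 ± 0.42 (adjusted p = 1). At 24 h the order was opposite, 14.8 ± 0.577 CPM in DMSO and 8.87 ± 2.91 in PA (-0.79, adjusted p = 0.282), and the test that its PA effect differs between the times had an adjusted p of 0.173. miR-548b-5p had 7.17 ± 0.28 CPM in DMSO 24 h and 3.32 ± 2.43 in PA 24 h (-1.25, adjusted p = 0.292). miR-548l had a negative log2 fold change at all 3 times, -0.45, -1.40 and -0.97, with 0.334 as the adjusted p of its mean. It passed the count filter through vehicle libraries alone, where it is high, so these values are a description and no support for a difference. miR-548ay-5p and miR-548ab ranged from 2.48 to 8.42 CPM and from 1.19 to 6.43 CPM over the libraries, and their groups overlapped at 3 and 12 h. At 24 h miR-548ay-5p overlapped too, whereas both PA libraries of miR-548ab lay above DMSO. Its means were 2.08 CPM in DMSO and 4.73 CPM in PA (1.14, edgeR adjusted p = 0.532).

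Of the 3p members, miR-548o-3p and miR-548aq-3p hold UUACUUUU at the same base as miR-548c-3p, and r of their log2 CPM with it over the 14 libraries was -0.42 and -0.22. miR-548aq-3p had 5.12 and 6.37 CPM in DMSO 12 h and 12.1 and 13.5 in PA 12 h, which gave 1.18 ± 0.43 on the log2 scale (SE; adjusted p = 0.0917 by edgeR). In DMSO 24 h it had 12.7 and 12.6 CPM, so PA 12 h lay at the level of the later vehicle, and against the other DMSO times its log2 fold change was 0.46 (adjusted p = 0.557). miR-548o-3p had 11.9 and 12.7 CPM in DMSO 12 h and 21.7 and 27.5 in PA 12 h (adjusted p = 0.285). In PA 24 h its libraries were the highest and the lowest of all, 30.1 CPM in A and 3.36 CPM in B, from 75 and 4 reads. miR-548a-3p had 0 and 4.55 CPM in DMSO 12 h against 4.93 to 10.1 in the other 12 libraries (1.78, adjusted p = 0.208 at 12 h). Without DMSO 12 h B, which leaves the library with 0 reads, its adjusted p was 0.0185.

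Scarce 3p members had the largest log2 fold changes of this arm at 24 h, and none passed. miR-548au-3p had 1 read in each DMSO 24 h library and 18 and 6 reads in PA 24 h, or 0.422 ± 0.0165 against 6.13 ± 1.54 CPM. Its log2 fold change was 3.71 ± 1.15 (SE, edgeR adjusted p = 0.0654), and no other group exceeded 3 reads in a library. It passed the count filter through PA 24 h alone, the group where it is high, so its value at 24 h is a description and no support for a difference. miR-548d-3p had 9 and 6 reads in DMSO 24 h and 2 and 0 in PA 24 h (-2.46 ± 1.12, adjusted p = 0.221), while at 3 h its log2 fold change was 1.23. miR-548ay-3p had the smallest adjusted p for the mean PA effect, 0.295, with log2 fold changes of 1.46, 1.21 and 0.60 at 3, 12 and 24 h. Its PA libraries lay above DMSO at 3 and 12 h, whereas at 24 h PA B had 13.5 CPM, the highest of all, and PA A 3.21 CPM, below both DMSO libraries. For the remaining 3p members log2 fold changes lay between -0.71 and 0.55 for miR-548t-3p, between -0.62 and 0.02 for miR-548h-3p, between 0.08 and 0.29 for miR-548e-3p and between -0.61 and 0.19 for miR-548b-3p.

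Of the members with no arm in the name, miR-548q and miR-548v had the smallest unadjusted p at 12 and 24 h. miR-548q had 16 and 0 reads in DMSO 12 h and 0 and 0 in PA 12 h. Taking 3 reads over the group as the floor, PA was at least 8.39-fold lower, but 1 of the 2 DMSO libraries was itself at 0 (edgeR adjusted p = 0.137). The entry passed the count filter through vehicle libraries alone, so its value at 12 h is a description and no support for a difference. Its reads were 0 in 6 of 14 libraries, spread over both treatments. miR-548v had 3 and 5 reads in DMSO 24 h and 21 and 10 in PA 24 h, or 1.7 ± 0.662 against 8.41 ± 0.00821 CPM (2.27 ± 0.90, SE, adjusted p = 0.154). At 12 h its log2 fold change was -0.97, with 10 reads in DMSO 12 h A. miR-548u, miR-548p and miR-548aw had log2 fold changes of -0.04, 0.36 and -0.92 at 24 h (adjusted p = 0.98, 0.844 and 0.515). Of the 44 entries outside this fit, 3 reached 10 reads in a library: miR-548ah-3p with at most 14, miR-548c-5p with at most 15 and miR-548al with at most 10. The 44 summed to 27.7 to 40.3 CPM, with log2 ratios of -0.17, -0.03 and 0.02 at 3, 12 and 24 h.

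**Figure D5:**
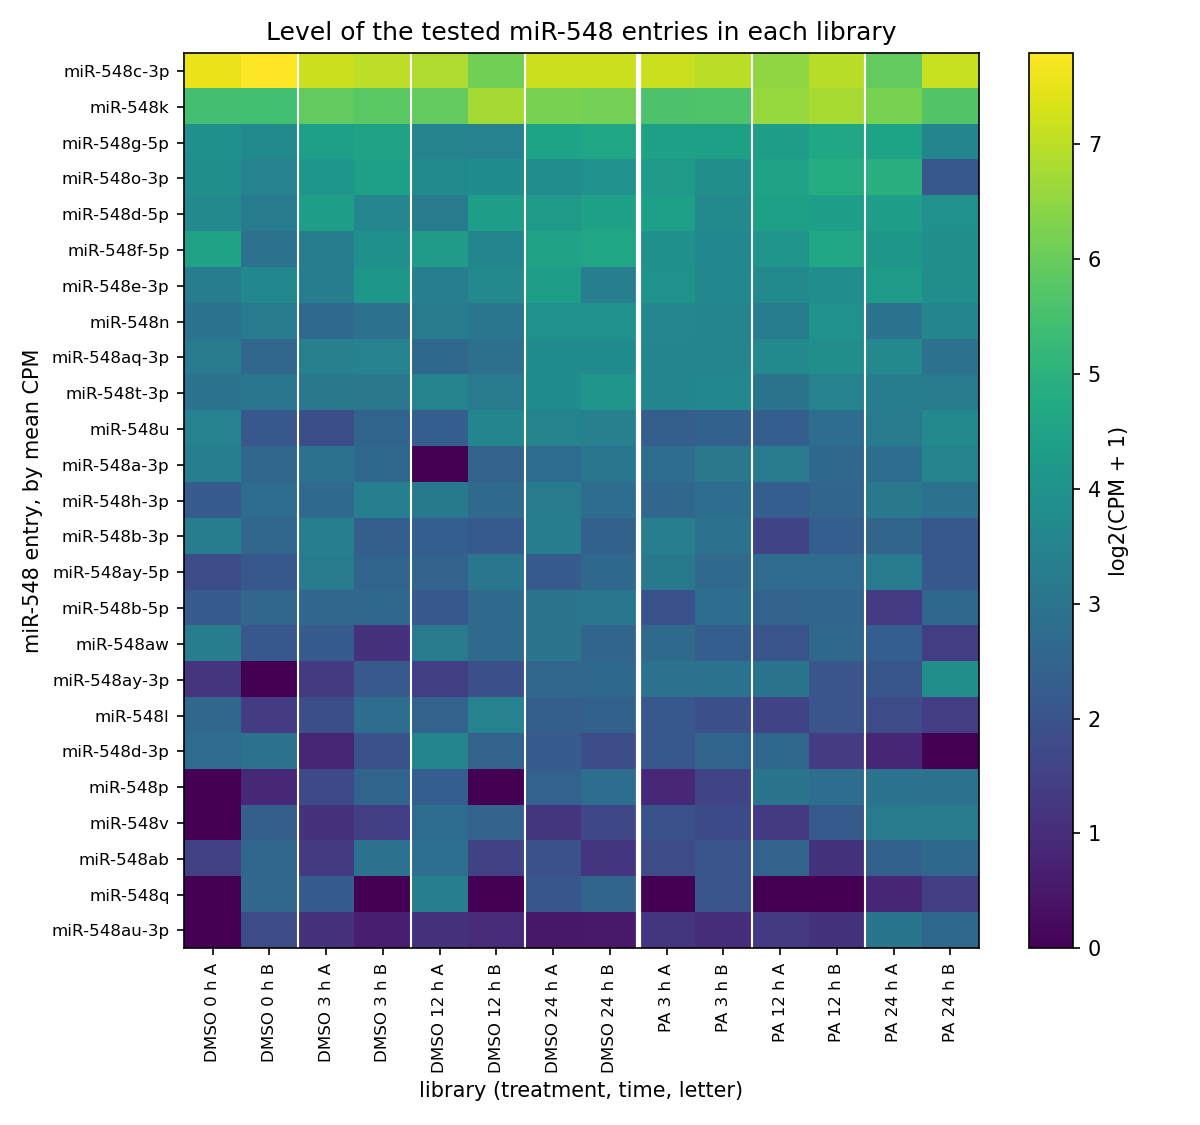
Log2(CPM + 1) (color scale) of the 25 tested miR-548 entries (rows, by mean CPM) in the 14 libraries (columns, DMSO left and PA right of the thick line). The top row, miR-548c-3p, is brightest in DMSO 0 h, and the lower rows, entries of few reads, can differ between A and B of one group, as miR-548q does in DMSO 12 h.

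Over the vehicle times, 0 of 25 members passed (edgeR, 13.1% of all entries did), 4 had an unadjusted p under 0.05 (29.8% of all entries) and DESeq2 called 0 with 2 unadjusted. For a PA effect that differs between the times 0 passed (5.93% of all entries), with 4 unadjusted by edgeR (22.1%) and 0 called and 0 unadjusted by DESeq2. In the fit of the mean PA effect 27 members were tested, miR-548c-5p and miR-548ah-3p added, and 0 passed (0% of 808 entries). There 3 had an unadjusted p under 0.05 (14.6% of all entries), and DESeq2 called 0 with 2 unadjusted. The 3 by edgeR were miR-548ay-3p, miR-548l and miR-548au-3p. Of these, miR-548l passed the count filter through vehicle libraries alone and miR-548au-3p through PA 24 h alone. Each is high on that side, so neither is support for a difference. Members also differed between libraries A and B. A chi-square of the reads of members with at least 20 reads, averaged over members and equal to about 1 under sampling noise, was 0.936 in DMSO 24 h, 4.04 in DMSO 12 h and 7.47 in PA 24 h. In PA 24 h miR-548c-3p alone reached 75.2, and the mean without it was 3.48. In the other groups the mean over members was 1.24 to 2.04. Over all entries with at least 20 reads, the chi-square per degree of freedom was 28.3 in DMSO 24 h, 104 in DMSO 12 h and 46 in PA 24 h. A spread between A and B was therefore not particular to the family.

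Of the MADE1 miRNAs miR-570, miR-579 and miR-603, 5 mature rows were in the table and 2 in the fit, of which 0 passed at 3 and 12 h and 1 at 24 h (6.67% of all entries passed at 24 h). At 24 h miR-579-3p had 39.4 and 32.5 CPM in DMSO and 18.4 and 5.04 CPM in PA. The log2 fold change was -1.48 ± 0.41 (SE, adjusted p = 0.0365 by edgeR and 0.0376 by DESeq2). Its means in DMSO 3 h and 12 h were 20.9 and 16.2 CPM, below DMSO 24 h. It passed in 5 of 14 fits that each left out 1 library, and its adjusted p reached 0.251 without PA 24 h B. The libraries of the 24 h groups did not overlap, but PA 24 h B rested on 6 reads. miR-570-3p, whose sequence is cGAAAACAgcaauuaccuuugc, had 22.7 ± 4.48 CPM in DMSO 24 h and 33 ± 1.51 in PA 24 h (0.54, adjusted p = 0.415). miR-603 had 1 read in all. Of 47 rows of miRNAs reported in other repeats, 34 were in the fit: 0 passed at 3 and 24 h and 3 at 12 h, where 11.1% of all entries did. At 12 h miR-374a-5p rose (0.84, adjusted p = 0.0342) while miR-151a-5p (-0.83, adjusted p = 0.0307) and miR-1303 (-0.87, adjusted p = 0.0378) fell. Leaving out each library in turn kept these 3 calls in 12, 8 and 4 of 14 fits, and the list's median log2 fold changes were -0.06, -0.09 and -0.14.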

How the data were processed

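Small RNA reads were counted in 14 libraries of PANC-1 cells. The authors deposited a table of whole-number read counts per mature miRNA and a table of TPM values, which are the deposited counts scaled to a total of 1000000 per library. The tools were bcl2fastq, Bowtie and edgeR and the genome build GRCh38, per the submitters' processing notes. For versions, annotation release, multi-mapping and strand, the rules are not given in the sources used here. No label states separate cultures for A and B, so p-values measure the spread between these libraries, which may be technical.

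Counts were fitted in R 4.3.3 with edgeR 4.0.16 (TMM, filterByExpr by group with minimum count 10 and minimum total 15, robust quasi-likelihood F test) in 1 fit of all 14 libraries. The fit was tested on simulated data. The mean PA effect used the 12 libraries of 3, 12 and 24 h with time as a term. Adjusted p-values are Benjamini-Hochberg over all entries tested, and SE is the log2 fold change divided by the root of F. DESeq2 1.42.0 was an alternative. The common biological coefficient of variation was 0.203. A group at 0 was set at a floor of 3 counts.

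Every member in the fit of all 14 libraries is named, with any other that reached 10 reads in a library, the MADE1 relatives and the 3 entries most like miR-548c-3p. Members, lists and tests were chosen with earlier results of these data known.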

Additional observations from a re-analysis of the deposited data

How the results depend on the processing

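The count of members passing at 3 h and for the mean PA effect was 0 in every alternative run. With no filter on low counts, 1 member passed at 12 h (miR-548q, adjusted p = 0.0241) and 1 over the DMSO times (miR-548c-3p). Leaving out 1 library in turn gave 0 to 1 members at 12 h, 0 to 1 at 24 h, 0 to 3 over the DMSO times and 0 to 2 for a PA effect that differs between the times. At 12 h miR-548g-5p passed without PA 24 h A (adjusted p = 0.0316) or B (0.0348), and at 24 h miR-548au-3p, which is in the fit only through its PA 24 h reads, passed without DMSO 0 h A (0.0477). Also at 12 h miR-548a-3p passed without DMSO 12 h B, and at 24 h miR-548c-3p without PA 24 h B. Over the DMSO times miR-548k, miR-548c-3p and miR-548p passed without DMSO 12 h A, miR-548a-3p without DMSO 12 h B, miR-548c-3p without PA 24 h A, and miR-548c-3p and miR-548g-5p without PA 24 h B. For a PA effect that differs between the times miR-548o-3p and miR-548g-5p passed without PA 24 h A. A lone library left in a group was assumed to vary like the other groups. The cause of these shifts was not tested. The log2 ratio of the summed CPM, leaving out 1 library in turn, ran from -0.06 to 0.07 at 3 h, from 0.11 to 0.37 at 12 h and from -0.27 to -0.23 at 24 h. At 24 h it was -0.43 with library totals, -0.43 with the deposited TPM values, -0.21 with DESeq2 size factors, -0.29 with every row counted and -0.15 without miR-548c-3p. With the letters as a replicate block, 0 members passed in all 6 comparisons. Correlations of same-letter deviations lay between -0.14 and 0.08 over 21 pairs of groups, so no strong effect shared by a letter was seen. The labels do not say what the letters stand for, and these correlations cannot settle whether same-letter libraries are paired. Depth limits the scarce members: 1 read is up to 0.909 CPM, and 44 of 69 entries were left out of the fit of all 14 libraries by the count filter.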
